A study of Mus musculus with 8 samples.

Results

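The genes described here make the proteins that choose and cut splice sites: the SR proteins, the heterogeneous nuclear ribonucleoproteins (hnRNPs), the proteins of the small nuclear ribonucleoproteins (snRNPs) and the subunits of splicing factor 3 (SF3). Every array probe was taken whose platform symbol begins with Srsf, Hnrnp, Snrp, Sf3a or Sf3b, whatever its values were. This gave 84 of 25697 probes and 47 of 16593 named genes. They were 16 probes for 9 SR genes, 41 for 18 hnRNP genes, 16 for 11 snRNP genes and 11 for 9 SF3 genes.

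Total RNA of 8 mouse kidney samples was measured on Illumina bead arrays, with 1 array for each sample. Tumor 1 came from the kidney of a Lin28 transgenic mouse of 5 weeks, and tumors 2, 3 and 4 from Lin28 transgenic mice of 4 months. Control 1 was a normal kidney at 5 weeks, and controls 2, 3 and 4 were normal kidneys at 4 months. The labels call the 4 arrays of each group biological replicates and describe the tumors as Wilms tumors. The sources used here give neither the Lin28 construct and its driver nor the strain and the sex of the mice, and they do not state whether the controls carried any allele. Lin28 binds RNA and keeps let-7 microRNA precursors from being processed. Wilms tumors are kidney cancers of children that look like embryonic kidney tissue.

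Splicing removes introns from a transcript as it is made. SR proteins bind mostly exonic sequences and help the machinery to settle on nearby splice sites, whereas hnRNPs coat the transcript and often hide sites from it. The snRNPs are particles of a small RNA, a ring of 7 Sm proteins (named Snrpb, Snrpd1, Snrpd2, Snrpd3, Snrpe, Snrpf and Snrpg as genes) and proteins particular to each particle. SF3a and SF3b belong to the U2 particle and hold it on the branch point. Cells of every tissue depend on most of these proteins, and the balance between SR proteins and hnRNPs is known to set which exons a transcript keeps.

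Promoter sequence was available in a RefSeq table of build GRCm38.p6 for 42 of the 47 genes, as 58 entries that each run from 250 bases before a start site to 50 bases after it. The promoter of a gene among the largest rises of each family is shown, since the results turn on these genes, with that of Snrpn, which fell. They lie at chr17:29032410-29032709 on the plus strand (Srsf3), chr15:103240147-103240446 on the plus strand (Hnrnpa1), chr6:86371290-86371589 on the plus strand (Snrpg), chr8:110846754-110847053 on the minus strand (Sf3b3) and chr7:60005150-60005449 on the minus strand (Snrpn, at a start shared with Snurf). Capitals mark matches, on either strand, to one of 6 motifs: the E-box CACGTG, the ETS core CCGGAAG, the NRF1 core CGCATGCG, the YY1 core GCCATNTT, CCAAT and TATAAA.
Srsf3: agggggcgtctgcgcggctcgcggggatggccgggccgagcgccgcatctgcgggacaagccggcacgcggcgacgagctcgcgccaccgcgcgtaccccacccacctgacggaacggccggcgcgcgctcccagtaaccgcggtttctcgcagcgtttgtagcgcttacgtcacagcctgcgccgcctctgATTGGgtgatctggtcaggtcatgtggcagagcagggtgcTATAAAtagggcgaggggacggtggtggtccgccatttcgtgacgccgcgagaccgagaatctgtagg
Hnrnpa1: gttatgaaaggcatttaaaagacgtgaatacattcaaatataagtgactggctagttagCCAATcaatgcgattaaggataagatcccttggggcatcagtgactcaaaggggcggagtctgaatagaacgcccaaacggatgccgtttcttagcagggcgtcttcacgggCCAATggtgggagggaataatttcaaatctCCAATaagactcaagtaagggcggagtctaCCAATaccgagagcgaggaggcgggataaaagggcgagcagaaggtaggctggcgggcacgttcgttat
Snrpg: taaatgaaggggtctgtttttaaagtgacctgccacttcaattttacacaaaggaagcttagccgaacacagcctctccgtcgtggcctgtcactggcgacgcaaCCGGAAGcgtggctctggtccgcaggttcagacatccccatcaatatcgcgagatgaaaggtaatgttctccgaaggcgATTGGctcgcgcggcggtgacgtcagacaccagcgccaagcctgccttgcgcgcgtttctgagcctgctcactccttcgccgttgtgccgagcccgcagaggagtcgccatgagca
Sf3b3: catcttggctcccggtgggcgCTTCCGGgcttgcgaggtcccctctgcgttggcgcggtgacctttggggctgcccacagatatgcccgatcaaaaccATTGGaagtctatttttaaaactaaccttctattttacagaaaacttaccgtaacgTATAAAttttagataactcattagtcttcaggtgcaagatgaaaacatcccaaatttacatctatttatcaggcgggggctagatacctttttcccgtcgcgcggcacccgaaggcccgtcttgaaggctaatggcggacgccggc
Snrpn: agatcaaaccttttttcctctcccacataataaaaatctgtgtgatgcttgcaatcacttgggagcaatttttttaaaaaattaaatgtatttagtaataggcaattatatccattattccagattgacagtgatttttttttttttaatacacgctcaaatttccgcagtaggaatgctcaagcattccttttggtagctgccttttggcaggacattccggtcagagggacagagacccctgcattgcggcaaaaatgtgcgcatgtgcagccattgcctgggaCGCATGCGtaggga

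The window of Hnrnpa1 held 4 copies of CCAAT and no match to the other 5 motifs. The windows of Snrpg and Sf3b3 each held an ETS core and a CCAAT match, that of Sf3b3 and that of Srsf3 a TATAAA match, and that of Srsf3 also a CCAAT match. The window of Snrpn had the lowest G and C content of the 5, at 40.3%, against 68.3% for Srsf3 as the highest, and it held a single match, to the NRF1 core. Over all 58 member entries, 18 held the ETS core (31.0%), against 8.86% of all 32851 entries in the table. The NRF1 core stood in 6 (10.3%, against 1.87% of all entries), CCAAT in 26 (44.8%, against 37.4%), the E-box in 7 (12.1%, against 7.15%), the YY1 core in 5 (8.62%, against 6.05%) and TATAAA in 7 (12.1%, against 13.6%). Among the 34 entries of genes with a probe that rose, the shares were lower for ETS (26.5%), NRF1 (5.88%) and the E-box (8.82%). They were higher for CCAAT (52.9%), YY1 (11.8%) and TATAAA (17.6%). All of these are matches of letters in a window and not binding sites. Several entries can belong to 1 gene.

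Values are probe intensities on a linear scale, from which the authors had subtracted background and which have the same mean on every array. Called above background was a probe that read more than 3 times the noise of its array, as did 45.5% to 55.3% of all probes in tumors and 44.2% to 51.6% in controls. Tumor 1 stood apart from the other arrays. Its noise was 9.19 intensity units against 3.56 to 5.49 on the other 7 arrays, and its correlation with the other tumors was 0.846 to 0.874, against 0.930 to 0.967 among tumors 2 to 4. With the controls it correlated at 0.841 to 0.879, which is as closely as with the other tumors, whereas tumors 2 to 4 did so at 0.734 to 0.831. On tumor 1, 171 probes that were above background on each of the other 7 arrays read far below 0 (beyond minus 3 times the noise), and no other array had such a probe. A probe each for Srsf1, Snrpa and Snrpb was among these, so results that rest on them are given with and without tumor 1. Xist, which is transcribed from the inactive X chromosome of females, read 155.1 to 300.9 in tumors and 2.2 to 34.8 in controls, and Kdm5d, a Y-linked gene, read at most 4.6 in tumors and was at 44.7 to 53.7 in controls 1, 3 and 4 and at -5.6 in control 2. The part of sex in the differences between the groups was not tested.

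The first question was how far the splicing genes differ between tumors and control kidneys. Most measured members rose. Values were put on the log2 scale after adding 16, and the dimmest were left out, namely those whose mean log2 value lay below percentile 40. This left 15418 probes, each tested with limma with Benjamini-Hochberg adjustment over all of them at a threshold of 0.05. Of the 84 member probes, 67 were tested, and 43 of these rose (64.2%), where 31.0% of all tested probes rose. A further 3 fell (4.48%), where 11.5% of all probes fell, and 21 did not pass. The 4 tumors lay above all 4 controls without overlap for 42 member probes, where the share over all probes was 29.4%, and below them for 3, where it was 9.48%. The median member was 0.90 higher on the log2 scale and the median of all probes 0.33 higher, with members between -1.10 and 2.73. Called by the tested probe of highest mean, 28 of 41 member genes rose (31.9% of all genes) and 2 fell (12.2%), namely Snrpn and Sf3b6. In RNA of whole tissue, a different number of cells of a type and a different amount of RNA per cell cannot be told apart.

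The 17 member probes that were not tested were dim, and 16 of them were at or under background on all 8 arrays. They leave Srsf12, Hnrnpa3, Hnrnpd, Hnrnpr, Snrpb2 and Snrpe without a measurement here, although every cell is known to use Snrpe, a protein of the Sm ring. Hnrnpr, for example, had 3 probes, of which the highest value on any array was 12.0. A dim probe of such a gene says that this probe gave no signal, not that the gene is silent. Filtering on the mean of all 8 arrays favours probes that are bright in at least 1 group, in members as in all probes. Of the 67 tested members, 52 were above background on all 8 arrays, and 39 of these rose and 2 fell. The share over all probes was not taken for that rule. It was taken for probes above background on at least 4 arrays. There 42 of 63 members rose (66.7%, against 32.6% of all such probes) and 3 fell (4.76%, against 13.2%).

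**Figure D1:**
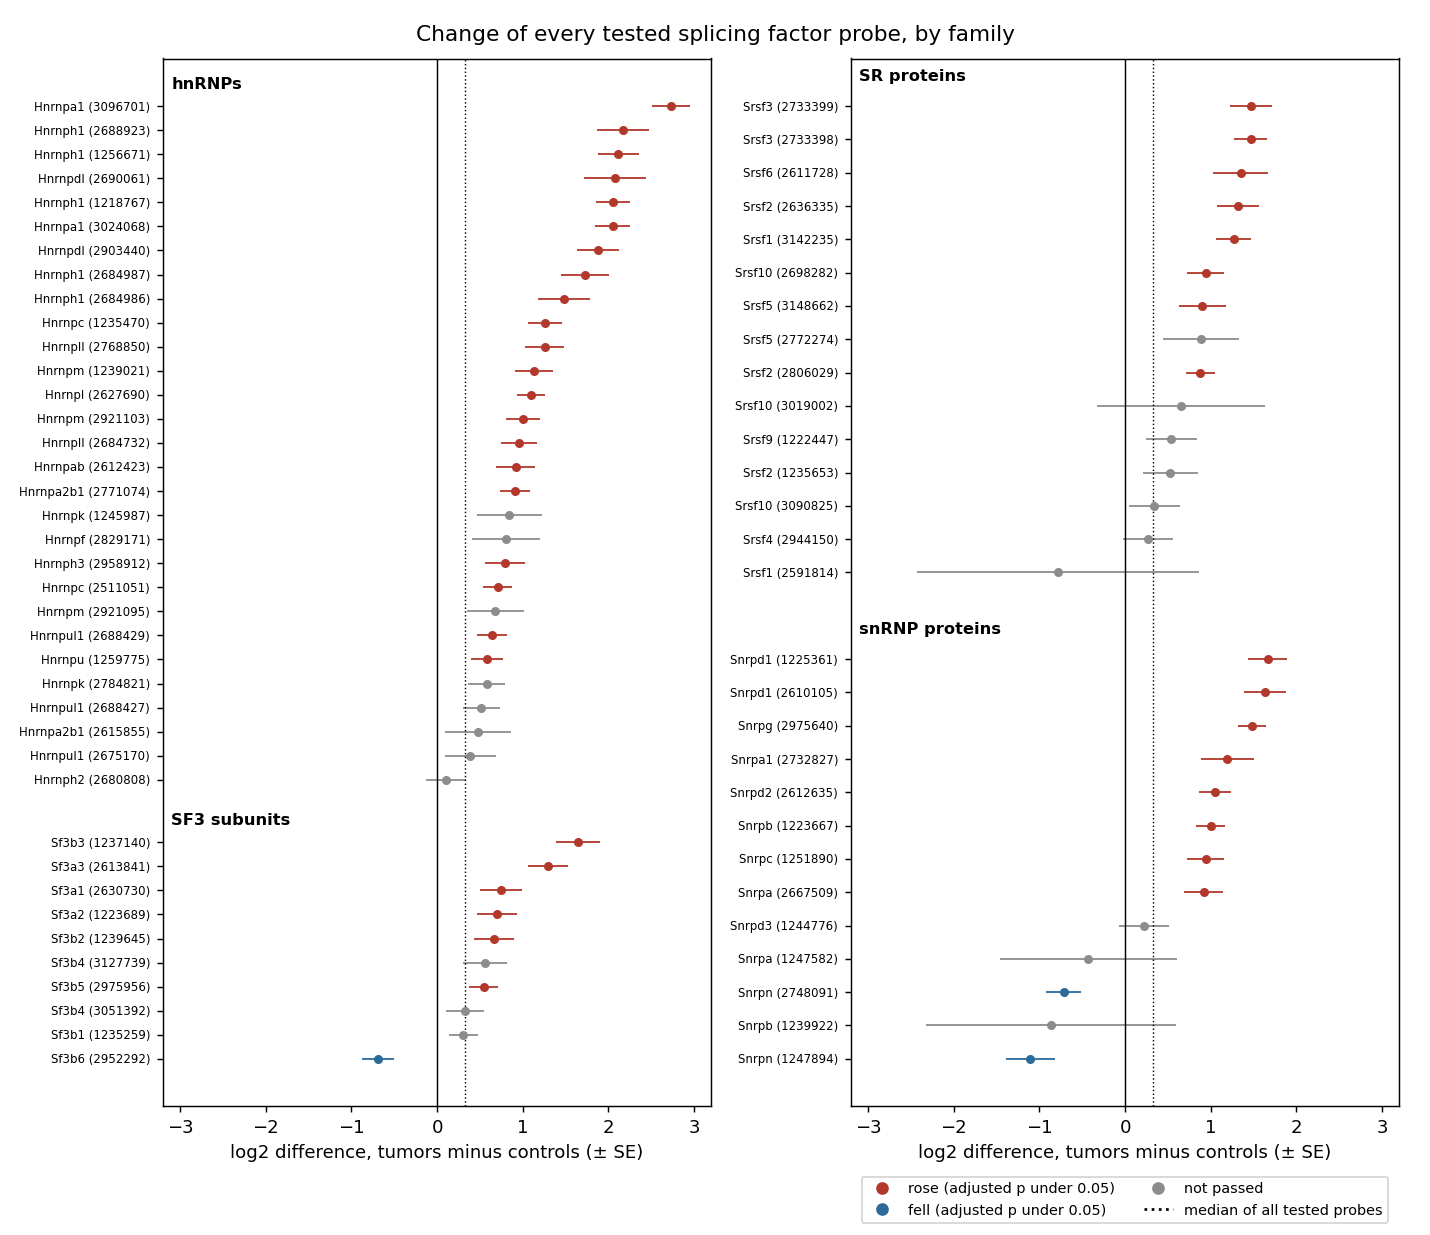
Log2 difference of tumors minus controls (x axis) for each of the 67 tested member probes (rows, with the numerical part of the probe identifier), by family; bars are ± 1 SE of the limma fit, n = 4 arrays per group. Red marks the 43 probes that rose, blue the 3 that fell and grey those that did not pass; the dotted line is the median of all tested probes, 0.33. The 3 longest bars belong to probes that read below 0 on tumor 1.

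The SR proteins had 15 tested probes for 8 genes. Of these probes 8 rose (53.3%, against 31.0% of all probes). None fell, where 11.5% of all probes did, nor did any fall at an unadjusted p under 0.05 in limma. Their median was 0.89, and values ran from -0.78 to 1.47. The largest rise was that of Srsf3, the smallest SR protein, which also takes part in the export and 3′ end processing of messenger RNA. It read 668.7, 362.1, 709.3 and 585.3 in tumors 1 to 4, against 162.7, 248.1, 168.5 and 203.6 in controls 1 to 4. All 4 tumors were above all controls, with tumor 2 the lowest of them. In log2 units the difference was 1.47 ± 0.25 (SE), which is 2.77-fold (limma adjusted p = 0.00253). The other probe gave 1.46 ± 0.19 (limma adjusted p = 0.000879). RefSeq names 1 pseudogene of Srsf3, and whether the probes also take up its transcript is not known here.

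Srsf6 regulates alternative exons. It read 958.4, 948.8, 1613.4 and 1796.3 in tumors, against 375.3, 735.3, 351.3 and 596.1 in controls, and the groups did not overlap. Tumors 3 and 4 were the high ones. The difference was 1.35 ± 0.32 (limma adjusted p = 0.00968). Srsf2, which marks nuclear speckles and is mutated in some human myeloid cancers, read 3756.3, 3718.4, 4490.7 and 5923.0 in tumors, against 1191.4, 2007.7, 2220.1 and 1766.1 in controls. Every tumor was again above every control, with a difference of 1.32 ± 0.25 (limma adjusted p = 0.00401). A second probe of Srsf2 rose by 0.88 ± 0.17 (limma adjusted p = 0.00465), and the last one, which read 9.0 to 46.5 over all arrays, differed by 0.53 ± 0.32 and did not pass (limma adjusted p = 0.214).

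Srsf1, which activates 5′ splice sites and is amplified in some human cancers, had a pair of probes that disagreed. One read 3406.3, 2460.9, 3936.3 and 4170.0 in tumors, against 1425.4, 1432.7, 1389.9 and 1405.7 in controls. The controls were almost level and every tumor was higher, by 1.27 ± 0.20 or 2.41-fold (limma adjusted p = 0.0019). The other read -43.6, 2970.1, 4800.5 and 4936.2 in tumors, against 1453.1, 2026.3, 1756.7 and 1867.9 in controls. Tumors 2 to 4 were above all controls on this probe and tumor 1 was below 0. Its difference was -0.78 ± 1.64 (limma adjusted p = 0.728) with all arrays and 1.22 without tumor 1 (limma adjusted p = 0.00367).

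Srsf10, an SR-like protein that turns into a repressor of splicing when it loses its phosphates, had 3 tested probes. One read 180.2, 127.5, 217.3 and 222.5 in tumors, against 103.7, 68.7, 91.2 and 90.4 in controls. The groups did not overlap, and the difference was 0.94 ± 0.22 (limma adjusted p = 0.009), although the call was lost under 3 of the 4 other scalings (0.40 to 0.53). Another probe read -15.9, 242.2, 504.2 and 430.5 in tumors, against 71.6, 75.9, 119.2 and 127.8 in controls. Tumor 1 was again below 0 while the other tumors were the highest arrays. The difference of this probe was 0.65 ± 0.98 (limma adjusted p = 0.617) with all arrays and 1.81 without tumor 1 (limma adjusted p = 0.00191). The third probe, which read 8.6 to 45.2 over all arrays, differed by 0.34 and by -0.12 to -0.05 under 3 other scalings, and did not pass.

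The remaining SR genes varied more between arrays. Srsf5, known from rat liver cells as an insulin-induced protein, read 1873.3, 1152.9, 2137.2 and 2403.9 in tumors, against 1001.5, 699.0, 1230.0 and 1023.7 in controls. Tumor 2 lay below control 3, so the groups overlapped, and the rise of 0.90 ± 0.27 passed (limma adjusted p = 0.0266). Leaving out tumor 3, tumor 4, control 1 or control 2 in turn ended this call (0.75 to 0.92, limma adjusted p = 0.0571 to 0.0737). The second probe of Srsf5 differed by 0.89 ± 0.44 and did not pass (limma adjusted p = 0.135). Srsf9 differed by 0.54 ± 0.29 (limma adjusted p = 0.164), and by 0.78 without tumor 1, where it passed (limma adjusted p = 0.0256). Srsf4 differed by 0.27 ± 0.29 (limma adjusted p = 0.477), and by -0.06 with equal array medians.

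**Figure D2:**
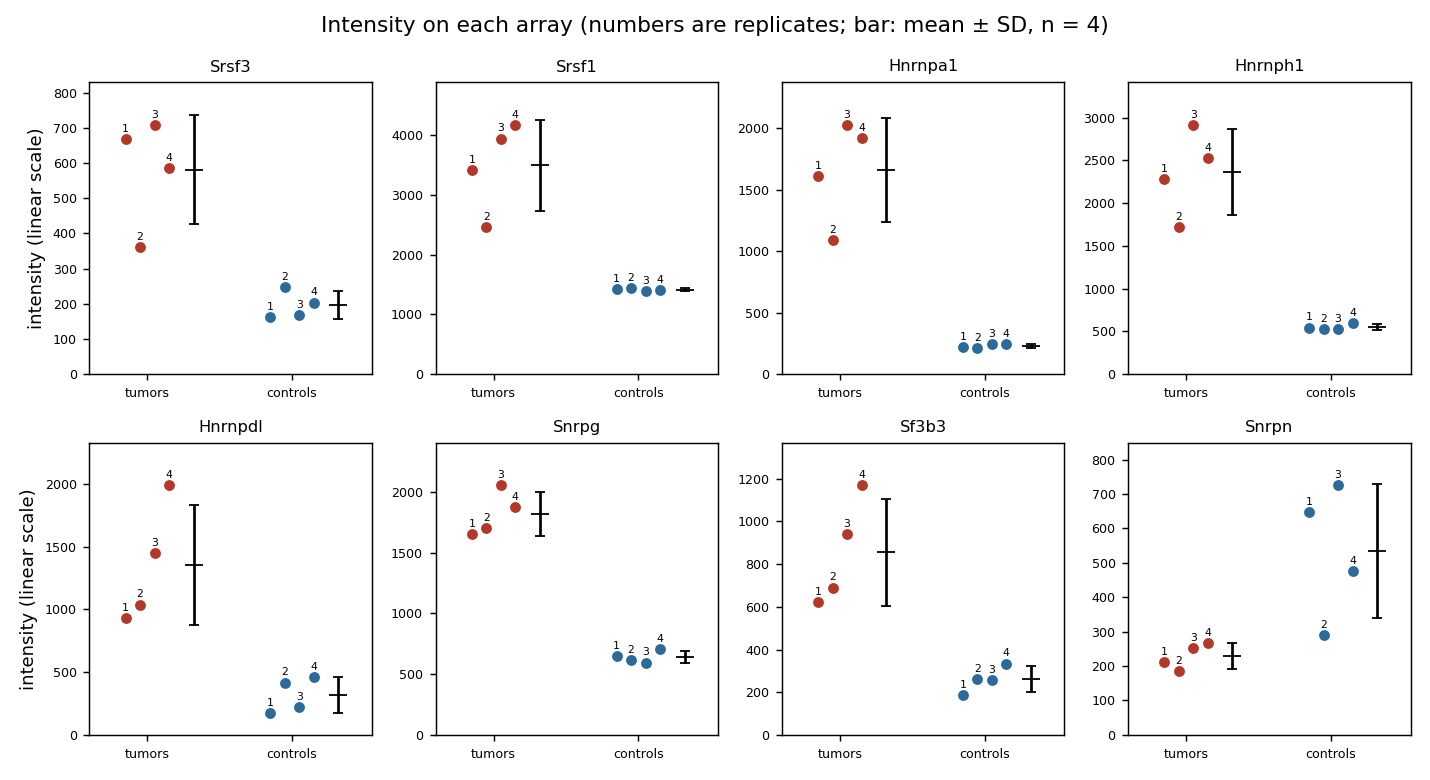
Intensity (y axis, linear scale starting at 0) of 8 member probes on each array, tumors in red on the left and controls in blue on the right, with replicate numbers; the black bar is the mean ± SD of 4 arrays. Hnrnpa1 is at 1088.0 to 2028.5 in tumors and 211.2 to 245.5 in controls, and Snrpn is the gene of the 8 with lower values in all tumors.

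The hnRNPs held the largest single rises. Of their 29 tested probes, 21 rose (72.4%, against 31.0% of all probes). None fell, where 11.5% of all probes did, nor did any fall at an unadjusted p under 0.05 in limma. Of the 21 rises 14 were at least 2-fold, as were 2990 of the 4775 rises over all probes. All tumors lay above all controls for 22 of the 29 probes, where the share over all probes was 29.4%. The median was 0.96, with values from 0.10 to 2.73. Hnrnpa1, which silences exons by binding UAGG-like sequences and often opposes Srsf1, had the largest difference of all members. It read 1609.3, 1088.0, 2028.5 and 1922.1 in tumors, against 221.8, 211.2, 245.5 and 244.8 in controls. The lowest tumor was more than 4 times the highest control. The difference was 2.73 ± 0.22, or 6.63-fold (limma adjusted p = 0.000111). A second probe read 38.6 to 72.8 in tumors and was at or under background in all controls (-0.9 to 4.4), which makes it at least 2.60-fold higher in tumors (limma adjusted p = 0.000257). RefSeq names 1 pseudogene of Hnrnpa1, so the source of the signal within the family is uncertain.

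Hnrnph1 binds runs of guanines near splice sites. All 5 of its probes rose, by 1.48 to 2.17. The probe of highest mean read 2284.4, 1722.7, 2916.1 and 2525.4 in tumors, against 544.3, 525.9, 528.6 and 598.0 in controls. The controls were level and the tumors were 4.14-fold higher (2.05 ± 0.20, limma adjusted p = 0.000224). The probe with the largest difference read 1670.1, 889.5, 2110.9 and 1827.7 in tumors, against 259.3, 267.1, 399.5 and 430.8 in controls, a rise of 2.17 ± 0.30 (limma adjusted p = 0.00108). Tumor 2 was the lowest tumor on each of these probes. A further probe rose by 2.12 ± 0.24 (limma adjusted p = 0.00042).

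The close relatives of Hnrnph1 differed less in their fitted values. Hnrnph3 rose by 0.79 ± 0.23 (limma adjusted p = 0.0226), and the call was lost under each of the 4 other scalings (0.19 to 0.53) and without tumor 3, tumor 4, control 3 or control 4 (0.66 to 0.81). Hnrnpf read 278.1, 218.2, 520.4 and 460.6 in tumors, against 307.0, 95.5, 278.8 and 161.9 in controls. Controls 1 and 3 lay within the range of the tumors, and the difference of 0.81 ± 0.40 did not pass (limma adjusted p = 0.131). The tested probe of Hnrnph2 read at most 17.4 on any array. It differed by 0.10 ± 0.23 with a sign that turned under each of the 4 other scalings (-0.22 to -0.03). Over the 8 tested probes of F and H type, 6 rose, where 31.0% of all probes rose. None fell, where 11.5% of all probes did. The median of 1.60 is mostly that of 1 gene. Hnrnph1 gave 5 of these probes, at 1.48 to 2.17. Those of Hnrnph3, Hnrnpf and Hnrnph2 were at 0.10 to 0.81, and among them Hnrnph3 alone rose.

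Hnrnpdl binds AU-rich RNA and takes part in splicing and export. It read 933.2, 1038.3, 1450.9 and 1988.1 in tumors, against 172.8, 416.3, 219.4 and 462.8 in controls. Both groups spread, with the controls 1 and 3 below controls 2 and 4, and the groups did not overlap. The difference was 2.08 ± 0.36 or 4.23-fold (limma adjusted p = 0.00287), and a second probe gave 1.88 ± 0.25 (limma adjusted p = 0.000822). Hnrnpab, an RNA-binding protein that also binds DNA, rose by 0.92 ± 0.23 (limma adjusted p = 0.0123), a call lost with equal array medians (0.58). Hnrnpa2b1 sorts RNAs for transport within the cell. One of its probes read 91.7, 59.5, 71.6 and 77.5 in tumors, against 37.4, 32.3, 27.4 and 31.7 in controls, with no overlap and a rise of 0.91 ± 0.18 (limma adjusted p = 0.00437). It was lost under 3 other scalings (0.24 to 0.41). The other tested probe of Hnrnpa2b1 read 1560.9, 590.9, 1954.2 and 1447.3 in tumors, against 1068.4, 596.1, 1201.7 and 892.0 in controls. Tumor 2 was there the lowest of all 8 arrays, and the difference was 0.48 ± 0.38 (limma adjusted p = 0.336), or 0.84 without tumor 2, where it passed (limma adjusted p = 0.0407). Over the 7 tested probes of A/B type, 6 rose (85.7%, against 31.0% of all probes) and none fell, with a median of 1.88. Hnrnpa1 and Hnrnpdl gave 2 of these probes each, at 1.88 to 2.73. Those of Hnrnpab and Hnrnpa2b1 were at 0.48 to 0.92.

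Among the other hnRNPs, 9 of 14 probes rose (64.3%, against 31.0% of all probes) and none fell (against 11.5%), with a median of 0.78. Hnrnpc forms a tetramer that binds uridine tracts and keeps cryptic exons out. It read 6206.2, 7209.8, 8388.2 and 9517.8 in tumors, against 3532.4, 2679.6, 3454.0 and 3297.1 in controls. No array of one group reached the other, and the difference was 1.26 ± 0.20 or 2.39-fold (limma adjusted p = 0.00177). Its second probe rose by 0.71 ± 0.17 (limma adjusted p = 0.0107), a call lost with equal array medians (0.37). Hnrnpl, which binds CA repeats, read 3280.2, 3389.3, 4026.9 and 4411.4 in tumors, against 1702.9, 1713.5, 1762.7 and 1804.9 in controls. The controls lay close together and the rise was 1.10 ± 0.17 (limma adjusted p = 0.00163). Both probes of its relative Hnrnpll, a regulator of alternative splicing in lymphocytes, rose, by 1.26 ± 0.23 and 0.96 ± 0.21 (limma adjusted p = 0.00342 and 0.00719).

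Hnrnpm, which binds GU-rich RNA and favours exon skipping, had 3 tested probes. The rises of the first and the second were 1.13 ± 0.22 (limma adjusted p = 0.00478) and 1.01 ± 0.20 (limma adjusted p = 0.00465). The third read 1050.5, 1780.2, 2679.9 and 3258.8 in tumors, against 1066.6, 1251.9, 1306.7 and 1406.8 in controls. Tumor 1 was the lowest of all arrays on it, and the difference of 0.68 ± 0.33 did not pass (limma adjusted p = 0.129), whereas 0.99 without tumor 1 did (limma adjusted p = 0.00982). Hnrnpk binds cytidine-rich RNA and DNA. It read 363.4, 391.8, 772.4 and 688.4 in tumors, against 403.6, 149.0, 439.2 and 246.1 in controls. Controls 1 and 3 were above tumors 1 and 2, and the difference was 0.84 ± 0.38 (limma adjusted p = 0.103). The second tested probe of Hnrnpk differed by 0.58 ± 0.21 and did not pass (limma adjusted p = 0.0539), or 0.74 without tumor 2, where it passed (limma adjusted p = 0.015).

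Hnrnpu, a large protein that binds both chromatin and RNA, was dim, at 17.5, 8.9, 12.8 and 9.5 in tumors, against 1.0, 6.1, 0.4 and 3.7 in controls. No control and 1 tumor were above background, so its rise of 0.58 ± 0.18 (limma adjusted p = 0.031) rests on values near the noise, and it was lost under each of the 4 other scalings (0.11 to 0.50) and without control 1, control 3 or control 4 (0.52 to 0.61). Of the 3 tested probes of Hnrnpul1, a relative of Hnrnpu, 1 rose, by 0.64 ± 0.18 (limma adjusted p = 0.0194), and lost its call under each of the 4 other scalings (0.08 to 0.42) and without tumor 3 or control 1. The others did not pass, at 0.51, or -0.02 with cyclic loess, and at 0.39 (limma adjusted p = 0.0844 and 0.322).

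The snRNP proteins had 13 tested probes, with a median of 0.94. Of these 8 rose (61.5%, against 31.0% of all probes) and 2 fell (15.4%, against 11.5%). Among the 9 tested probes of the Sm core, 5 rose (55.6%) and 2 fell (22.2%). Both that fell are probes of Snrpn. Snrpd1, a protein of that ring, read 1318.3, 1255.8, 1866.2 and 1666.0 in tumors, against 556.3, 333.1, 559.6 and 447.7 in controls. The groups stood well apart, at 1.66 ± 0.23 or 3.17-fold (limma adjusted p = 0.00101). Its second probe gave 1.63 ± 0.25 (limma adjusted p = 0.00155). Snrpg, the ring's smallest protein, read 1652.4, 1699.8, 2052.8 and 1875.3 in tumors, against 646.0, 612.8, 595.5 and 708.6 in controls. The arrays within each group were close to each other, and the rise was 1.48 ± 0.16 or 2.79-fold (limma adjusted p = 0.000383). Snrpd2 rose by 1.05 ± 0.19 (limma adjusted p = 0.00328).

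Snrpd3, a further ring protein, read 1019.0, 1615.7, 2485.1 and 2520.4 in tumors, against 1760.7, 1456.9, 1571.0 and 1387.1 in controls. Tumor 1 was the lowest of all arrays and tumors 3 and 4 were the highest. The difference of 0.22 ± 0.29 did not pass (limma adjusted p = 0.576) and was -0.12 with equal array medians. Snrpb, which makes the B and B′ proteins of the ring, had a pair of probes. One read 519.7, 403.6, 516.4 and 555.8 in tumors, against 223.9, 244.9, 232.0 and 259.1 in controls, and rose by 1.00 ± 0.17 (limma adjusted p = 0.00249). The other read -46.6, 1451.6, 2630.9 and 2622.8 in tumors, against 1086.0, 1068.7, 1162.3 and 1260.7 in controls. As in Srsf1, tumor 1 was below 0 and the other tumors were above all controls. The difference was -0.86 ± 1.46 (limma adjusted p = 0.661) with all arrays and 0.91 without tumor 1 (limma adjusted p = 0.0154).

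Snrpn was the exception among the snRNP genes. It makes SmN, which stands in for the B protein of the ring, mainly in neurons and heart, and it is an imprinted gene expressed from the paternal copy. Its start site is shared with Snurf, whose reading frame lies on the same transcript, so that the gene and Snurf may not be told apart. It read 211.4, 184.4, 251.8 and 266.8 in tumors, against 647.2, 289.2, 724.6 and 476.8 in controls. All tumors were below all controls, of which control 2 came closest. The log2 difference was -1.10 ± 0.29, which is 2.15-fold lower in tumors (limma adjusted p = 0.0149), and the arrays of 4 months alone gave -0.96 (limma adjusted p = 0.0599). The second probe read 19.0, 11.6, 10.6 and 11.3 in tumors, against 40.7, 23.1, 42.9 and 23.3 in controls. No tumor was above background on it, so it was at least 1.50-fold lower in tumors (limma adjusted p = 0.0232). Leaving out tumor 3, tumor 4, control 1 or control 3 ended that call (limma adjusted p = 0.058 to 0.0727).

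The proteins particular to the U1 and U2 particles had 4 tested probes, of which 3 rose. Snrpa, the A protein of the U1 particle, read 615.1, 442.6, 710.0 and 900.9 in tumors, against 363.1, 314.4, 328.8 and 332.1 in controls. The groups did not overlap, and the rise was 0.92 ± 0.23 (limma adjusted p = 0.0114), or 0.59 and not past the threshold with equal array medians. Its other probe read -49.5, 250.7, 575.6 and 568.3 in tumors, against 314.8, 153.7, 324.5 and 238.7 in controls. Without tumor 1 this probe differed by 0.77 and still did not pass (limma adjusted p = 0.106), against -0.43 with all arrays (limma adjusted p = 0.763). Snrpc, the C protein of U1 that steadies the pairing with the 5′ splice site, rose by 0.94 ± 0.21 (limma adjusted p = 0.00828), and was lost under 3 other scalings (0.31 to 0.47). Snrpa1, the A′ protein of U2, rose by 1.20 ± 0.31 (limma adjusted p = 0.0135).

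**Figure D3:**
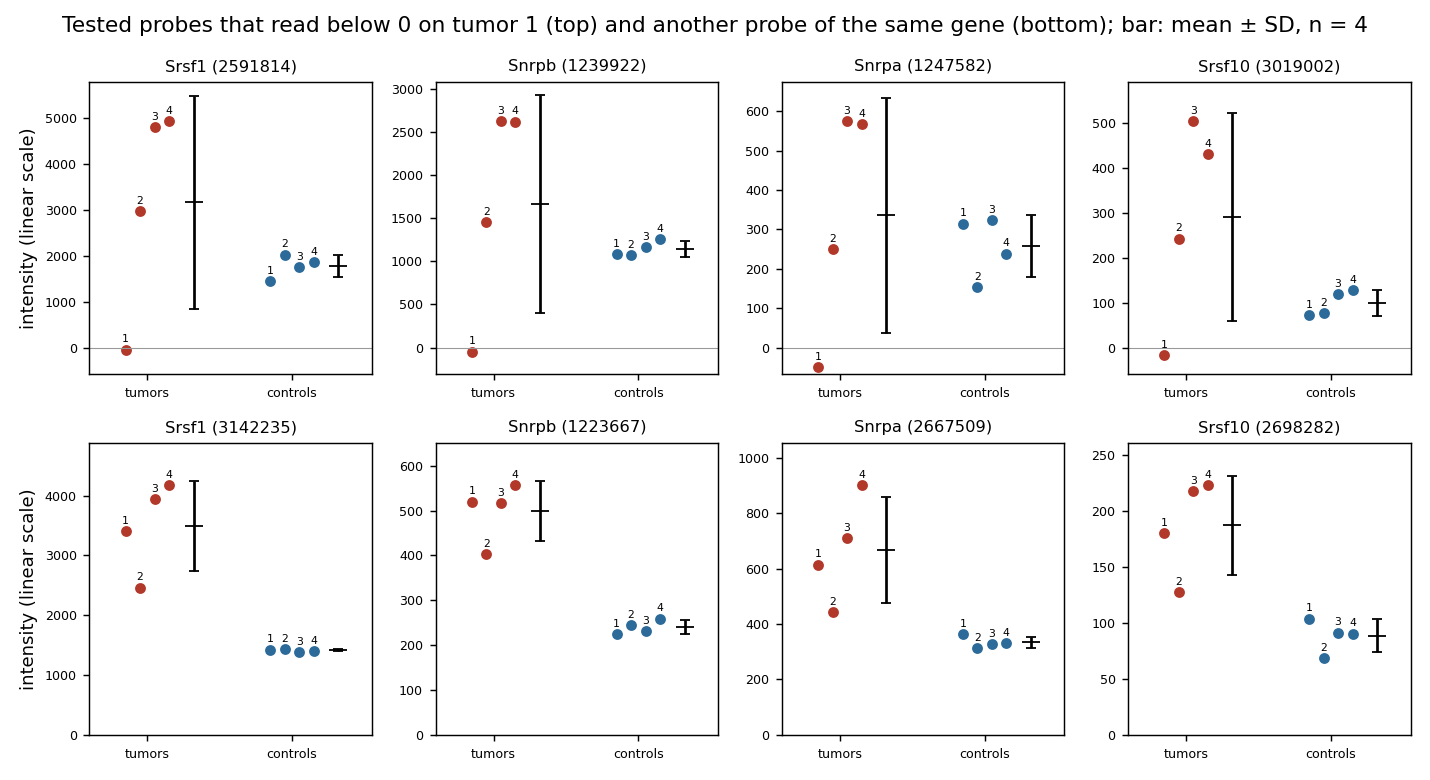
Intensity (y axis, linear scale) on each array of the 4 tested member probes that read below 0 on tumor 1 (top row) and of another probe of the same gene (bottom row), tumors in red on the left and controls in blue on the right; the black bar is the mean ± SD of 4 arrays. On the bottom probe of each gene tumor 1 lies among the other tumors, above all controls.

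The SF3 subunits had 10 tested probes. Of these 6 rose, where 31.0% of all probes rose, and 1 fell, where 11.5% of all probes fell. Their median of 0.61 was the lowest of the families. With equal array medians 2 of the 10 rose, which is no larger a share than that over all probes with this scaling. Under each remaining scaling the share that rose was larger than over all probes. Sf3b3, the large scaffold protein of SF3b, read 622.1, 689.6, 941.7 and 1168.7 in tumors, against 185.1, 262.9, 258.2 and 334.2 in controls. The lowest tumor was above the highest control, at 1.64 ± 0.26 or 3.12-fold (limma adjusted p = 0.00186). Sf3a3, a subunit of SF3a, read 1182.2, 1152.0, 1641.6 and 1755.4 in tumors, against 408.0, 651.2, 549.1 and 683.1 in controls. Tumors 3 and 4 were the high ones and the groups did not overlap, with a rise of 1.30 ± 0.23 (limma adjusted p = 0.00328).

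The other SF3 rises were smaller, and leaving out 1 array could end each of their calls. Sf3a1, which contacts U1 as well as U2, read 563.8, 566.8, 788.8 and 1115.4 in tumors, against 366.8, 407.7, 453.6 and 497.2 in controls. The tumors were above the controls, with a rise of 0.74 ± 0.25 (limma adjusted p = 0.038) that was lost under each of the 4 other scalings (0.41 to 0.61) and without any 1 of tumor 3, tumor 4 or the 4 controls (0.54 to 0.81). Sf3a2, Sf3b2 and Sf3b5 rose by 0.70 ± 0.24, 0.67 ± 0.23 and 0.54 ± 0.17 (limma adjusted p = 0.0398, 0.0444 and 0.0296). Sf3a2 and Sf3b2 had overlapping groups, and all 3 lost their calls with equal array medians (0.52, 0.33 and 0.21). They were also lost without tumor 3, tumor 4, control 1 or control 3 in turn, fits in which 2 probes of the whole family rose, and Sf3a2 also without tumor 1, and Sf3b2 and Sf3b5 without control 4. Sf3b1, the subunit that closes around the branch point and is mutated in human myelodysplasia, read 9.4, 13.8, 14.2 and 12.3 in tumors, against 2.8, 8.8, 8.3 and 8.5 in controls. With 1 tumor and no control above background, its difference of 0.31 ± 0.17 (limma adjusted p = 0.178) is not a measurement of the gene's level.

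Sf3b6, the subunit that touches the branch point base, went the other way. It read 50.9, 45.4, 65.6 and 44.3 in tumors, against 104.2, 102.5, 94.6 and 70.0 in controls. Tumor 3 came close to control 4, and the groups did not overlap. The fall was -0.69 ± 0.19, or 1.61-fold lower in tumors (limma adjusted p = 0.0186). Without tumor 4, control 1 or control 3 it did not pass (-0.67 to -0.63, limma adjusted p = 0.0517 to 0.053), nor with the arrays of 4 months alone (-0.63, limma adjusted p = 0.0593). Both probes of Sf3b4 did not pass, at 0.56 (limma adjusted p = 0.111) and at 0.33 (limma adjusted p = 0.269), the second with a difference of -0.05 to -0.0013 under 3 other scalings.

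Several probes for 1 gene allow a check within the gene. Of the 19 member genes with more than 1 tested probe, 7 had all probes rise, 1 (Snrpn) had both fall, 9 had some that rose and some that did not pass, and 2 (Hnrnpk and Sf3b4) had none that passed. No gene had probes called in opposite directions. In 4 of the mixed genes (Srsf1, Srsf10, Snrpa and Snrpb) a probe that did not pass read below 0 on tumor 1. The probe sequences were not used here, so which transcripts each probe reads is not known.

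The members shifted together within an array. Relative to the mean of the controls, the median over the 67 members was 0.84 in tumor 1, 0.56 in tumor 2, 1.16 in tumor 3 and 1.24 in tumor 4, while that over all probes was 0.30, 0.27, 0.39 and 0.37. The hnRNP median was 0.90, 0.69, 1.20 and 1.33 in the same order, and the SF3 median 0.54, 0.35, 0.76 and 0.90. Each family was thus lowest in tumor 2. Of the 4 tumors, tumor 2 was the lowest for 46 of 67 members, where it was the lowest for 35.8% of all probes, and it stayed so for 37 to 43 members under the 4 other scalings. Tumor 4 was the highest for 34 members (28.4% of all probes), and tumor 3 for 27 (19.8% of all probes). Controls 1 and 3 were both above controls 2 and 4 for 17 members (25.4%, against 19.9% of all probes) and both below them for 20 (29.9%, against 38.6%).

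Summed markers of cell types also differed between the arrays, and not all in the same order as these shifts. Marker genes of dividing cells summed to an intensity of 2090 in tumor 1, 1421 in tumor 2, 2802 in tumor 3 and 2800 in tumor 4, while the controls gave 75.6 to 118, so tumor 2 was again the lowest tumor. All 4 tested markers of dividing cells rose, and so did 7 of 7 markers of nephron progenitors and 6 of 6 of stroma, with summed progenitor markers of 1311 to 4852 in tumors (82.5 to 409 in controls) and stroma markers of 7414 to 18877 in tumors (1076 to 3096 in controls). Tumor 2 had the highest sums of stroma (18877), of immune cells (9865, against 198 to 1116 in controls) and of muscle (16606, against 510 to 1540 in controls). The immune markers disagreed: of the 2 tested, 1 rose (3.04) and the other differed by -0.16 and did not pass. Of the 4 tested muscle markers, 3 rose. Of all genes, 31.9% rose and 12.2% fell. The 9 markers of the proximal tubule all fell, with sums of 1048 to 2771 in tumors 2 to 4 and 35950 in tumor 1, against 42351 to 66396 in controls. Of 5 tested markers of the loop and distal tubule, 4 fell. Their list summed to 724 to 2997 in tumors 2 to 4 and 17822 in tumor 1, against 20971 to 34220 in controls. Markers of the endothelium summed to 1327 to 5310 in tumors and 1848 to 3458 in controls, and none of the 5 passed in limma, nor at an unadjusted p under 0.05. The part of cell make-up and of cell division in the rise of the splicing genes was not tested.

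**Figure D4:**
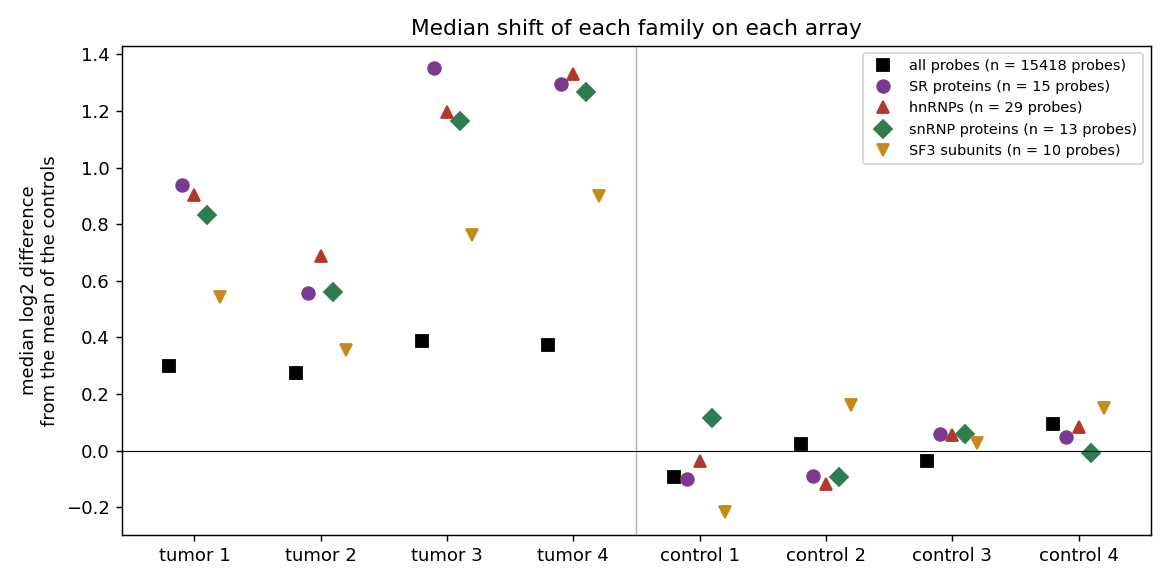
Median log2 difference from the mean of the 4 controls (y axis) on each array (x axis), for the tested probes of each family and for all tested probes. In every tumor each family median lies above that of all probes, with the SF3 subunits the lowest family, and each family median is lowest in tumor 2.

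Age was tested as an interaction, the tumor effect at 5 weeks minus that at 4 months, which rests on 1 tumor and 1 control at 5 weeks. Of the 67 members, 4 had a different effect, where 1.52% of all probes did (limma, 234 of 15418). They were the 4 tested member probes that read below 0 on tumor 1: Srsf1 (-7.65, limma adjusted p = 0.00073), Snrpb (-6.99, limma adjusted p = 0.0014), Snrpa (-5.25, limma adjusted p = 0.024) and Srsf10 (-4.14, limma adjusted p = 0.028). With values far below 0 treated as missing, an alternative added after the data were seen, the probes of Srsf1, Snrpb and Snrpa had no value at 5 weeks to test, that of Srsf10 did not pass (limma adjusted p = 0.0629), and 0 members passed, against 3 at an unadjusted p under 0.05. At 5 weeks the probes of Srsf1, Snrpb and Snrpa kept a value on control 1 alone. The Srsf10 value on tumor 1 was not low enough to be set to missing. Its effect was -4.14 in both fits, and only the adjustment over all probes moved it past the threshold. A second probe of each of the 4 genes did not differ with age past the threshold. At an unadjusted p under 0.05, 6 members differed in the fit with all values.

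The balance of all probes depended on the scaling, and that of the members less so. Of all probes called with the authors' scaling, 72.9% were higher in tumors, whereas this share was 53.4% with quantile normalization, 55.1% with equal array medians, 47.9% with cyclic loess and 53.7% with normexp correction and quantile normalization. The median of all probes was 0.33 with the authors' scaling and 0.01, 0.09, -0.03 and 0.01 with the others. Of the members, 35, 32, 34 and 35 rose and 3 fell under each. Relative to the median of all probes, the member median was 0.57 with the authors' scaling and 0.75, 0.47, 0.67 and 0.67 with the others. The 43 risen probes included 29 that kept the call under all 4 other scalings, among them those given above for Srsf1, Srsf2, Srsf3, Srsf6, Hnrnpa1, Hnrnph1, Hnrnpdl, Hnrnpl, Snrpd1, Snrpg, Sf3a3 and Sf3b3, and the 3 fallen probes kept theirs.

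**Figure D5:**
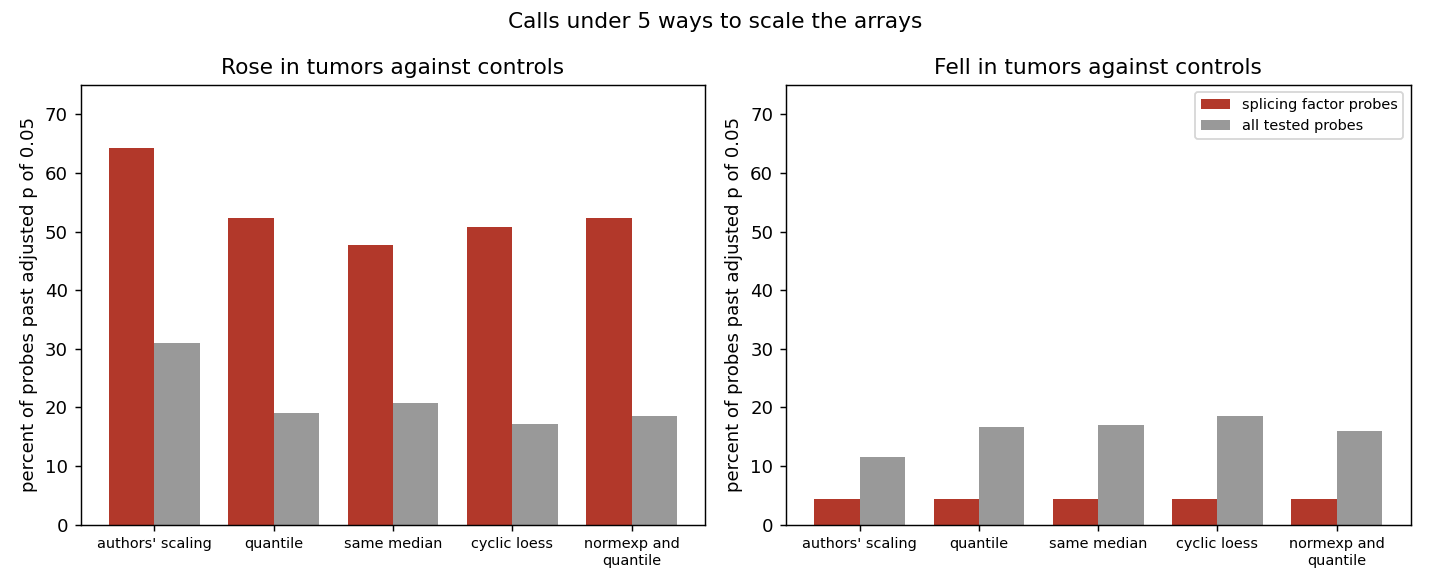
Percent of tested probes past a limma adjusted p of 0.05 (y axis, from 0) under 5 ways to scale the arrays (x axis), for the 67 members in red and all 15418 tested probes in grey; left, probes that rose in tumors against controls; right, probes that fell. The members keep the larger share of rises and the smaller share of falls under each scaling.

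Genes of the splicing machinery with other names were read in 8 lists, by the tested probe of highest mean for each gene. Of 24 tested proteins of the U1, U2, U4/U6 and U5 particles outside the member families, 18 rose and none fell, with a median of 1.01. Prpf39, a U1 protein in yeast, had the largest rise, 1.69 ± 0.24 (limma adjusted p = 0.0011), with 46.1 to 65.8 in tumors against 2.4 to 17.9 in controls. Of 14 branch point and U2 associated factors, 8 rose and none fell (median 0.66), led by Rbm5, a regulator of apoptosis gene splicing, at 1.45 ± 0.28 (limma adjusted p = 0.00438). Among 18 factors of the Prp19 complex and the late steps, 11 rose and none fell (median 0.75). Aqr, a helicase, rose by 2.01 ± 0.61 (limma adjusted p = 0.0274), with 76.7 to 121.8 in tumors against 102.7 in control 2 and values below 0 in the other controls. For comparison, the median of all probes was 0.33, and 31.9% of all genes rose and 12.2% fell. Cherp, Cactin, U2af2 and Dnajc8 of the branch point list and Lsm7 of the particle list did not pass. Neither did Clk4, an SR protein kinase. On tumor 1 these genes read -54.4 to -35.2, while they were above background on the other 7 arrays. The lists were not read without tumor 1, so their counts and medians carry this limit.

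Of 18 SR protein kinases and SR-related proteins, 12 rose and none fell, with a median of 0.91. Tra2a, an SR-like activator of exons, read 1354.4, 1350.7, 1945.1 and 2226.9 in tumors, against 216.8, 486.2, 294.1 and 470.8 in controls, a rise of 2.22 ± 0.30 (limma adjusted p = 0.000954). Among 16 hnRNP-like proteins with other symbols, 11 rose and 1 fell (median 0.85). Tardbp, known from motor neuron disease, rose by 1.74 ± 0.32 (limma adjusted p = 0.00373), and Ralyl, a relative of Hnrnpc, was lower (limma adjusted p = 0.00514), with no tumor above background (-6.4 to 2.6) and 11.1 to 20.2 in controls, values too close to the noise to give a size. The proteins that load the Sm ring onto the small RNAs rose in 11 of 16 genes and fell in 1 (median 0.87). Wdr77, which helps to methylate Sm proteins, rose by 1.60 ± 0.30 (limma adjusted p = 0.004), and Gemin2, which holds the Sm proteins before they are loaded, fell, at 3.5 to 16.1 in tumors against 23.4 to 110.0 in controls (-1.40 ± 0.38, limma adjusted p = 0.0175). Of 8 genes of the exon junction complex, which marks spliced junctions, 4 rose and none fell (median 0.56), with Rbm8a at 1.80 ± 0.34 (limma adjusted p = 0.00403). In the lists with none that fell, none fell at an unadjusted p under 0.05 in limma.

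Of 18 tested regulators of splicing that are particular to tissues, 9 rose and 2 fell (median 0.70). Of all genes, 31.9% rose and 12.2% fell. The share that rose was thus larger in this list, and the share that fell was no larger. Rbfox1, a regulator in neurons and muscle, rose by 2.22 ± 0.53 (limma adjusted p = 0.0103), with 145.3 to 563.3 in tumors against 21.9 to 28.2 in controls 1, 3 and 4 and 138.7 in control 2. Rbm47 and Esrp2, regulators in epithelia, were the ones that fell. Esrp1, the close relative of Esrp2 and an epithelial regulator too, did not pass and had the other sign, at 203.8 to 455.5 in tumors against 68.5 to 610.1 in controls (0.70 ± 0.60, limma adjusted p = 0.376). Rbm47 read 1268.7, 812.0, 950.0 and 958.1 in tumors, against 1969.9, 3470.9, 2485.9 and 2576.7 in controls, a fall of -1.37 ± 0.23 (limma adjusted p = 0.00224). Esrp2 read 41.6, 19.1, 30.0 and 22.0 in tumors, against 66.5, 54.9, 99.2 and 47.6 in controls (-0.90 ± 0.25, limma adjusted p = 0.018). On Rbm47 and Esrp2 every tumor was below every control, where the share over all probes was 9.48%. The part of cell make-up in these falls was not tested.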

How the data were processed

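The deposited series values of 8 Illumina arrays, 4 tumors and 4 controls, were used. They are probe intensities on a linear scale that the authors had background-subtracted and scaled to an equal mean, as the values themselves show. No source used here gives the method. A second deposited table was not used, because its 8 signal columns have names that match no sample. Values below 0 were set to 0, 16 was added and the log2 of these deposited intensities was taken, so fold changes of dim probes are understated. The 10279 probes under the 40th percentile of mean log2 value were left out and 15418 kept; members near the limit were Hnrnpu, kept with a mean of 4.51, and a second probe of Snrpa1, left out with 4.47. Noise was a scaled median size of the values below 0 on each array. Each probe was tested two-sided with limma 3.58.1 in R 4.3.3 without covariates (functions lmFit, eBayes), and p-values were adjusted by Benjamini-Hochberg over all kept probes; the age interaction leaves 4 residual degrees of freedom. Where all arrays of a group were at or under background, the fold printed is a lower bound: each dim array enters with its background limit or its own value, whichever is larger. The number of arrays limits the precision. Symbols come from the platform annotation, and none changed in the annotation of GRCm38.p6. The code was tested on simulated data.

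The members and lists were chosen with earlier results of these data known. Named with full statistics were, in each family, the 3 probes with the largest rise and the 2 with the largest fall among called probes without overlap, and fixed genes, of which Srsf7 had no probe and Hnrnpd none that was tested. Every other member could be named, and from each other list the called gene with the largest rise and that with the largest fall; Esrp2 was added after its values were seen. Alternatives were 4 other scalings or background corrections, 4 or 64 added, no filter, a filter on probes above background on 4 arrays, 1 probe per gene, a trended robust prior, array weights, age as covariate, the replicate number as block, arrays of 4 months and leaving out each array.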

Additional observations from a re-analysis of the deposited data

Results flagged for a closer look

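Within a group of 4 arrays, 6 of 134 groups had 1 array far from the others relative to the range of the group, where chance gives about 1 in 20. Tumor 1 was far below the other tumors on the second probe of Srsf1 (-43.6) and of Snrpb (-46.6), and above them on the dim probe of Snrpn (19.0). Tumor 2 was the low one on the dim probe of Srsf2 (15.1). Control 1 was the low one on Sf3b1 (2.8) and on a dim probe of Sf3b4 (2.4), on which all arrays read at or close to background.

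The tumor effect at 5 weeks minus that at 4 months, tested as an interaction in limma, passed the threshold for 4 probes, at -7.65 (Srsf1), -6.99 (Snrpb), -5.25 (Snrpa) and -4.14 (Srsf10). Each of these probes read below 0 on tumor 1, the tumor of 5 weeks, and was above background on the other 7 arrays.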

How the results depend on the processing

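No call changed direction, but some were lost. Of the 43 member probes that rose, 35 kept the call when each array was left out in turn and 29 under 21 alternatives; of the 3 that fell, 1 (the brighter probe of Snrpn) kept it when each array was left out and 0 under those 21. Risen probes over the array numbered 2932 with quantile normalization, 2639 with cyclic loess, 2851 with normexp and 7185 with array weights, and fallen ones 2867 with cyclic loess and 2768 with array weights. With 1 probe per gene 28 members rose, 10 of them hnRNPs, and 1 snRNP gene fell. Leaving out each array gave 1 to 3 fallen members, 1 to 2 fallen snRNP probes, 0 to 1 fallen SF3 probe and 2 to 7 risen SF3 probes. With the arrays of 4 months alone, 1 member fell (1 snRNP and 0 SF3 probes) and 2 SF3 probes rose. Risen SF3 probes also numbered 2 with equal array medians and 3 each with cyclic loess, no filter and the replicate block. Probes whose tumor effect differed with age numbered 150 with 64 added, 1967 with no filter and 50 with values far below 0 as missing; for members 2 with normexp, 2 with 64 added, 11 with no filter and 0 with such values as missing.

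No probe that passed the threshold changed sign. Those that did not pass and did change sign were the second probe of Srsf1 (1.05 with array weights, 1.13 at 4 months, 1.22 with low values missing, and -1.54 to 1.22 over the fits that leave out an array), that of Snrpa (0.62, 0.88, 0.77 and -0.96 to 0.77 in the same order) and that of Snrpb (0.78, 0.88, 0.91 and -1.55 to 0.91), all 3 below 0 on tumor 1. Further ones were Sf3b4 (-0.0013 with quantile normalization, -0.047 with loess, -0.012 with normexp), Srsf10 (-0.12, -0.10 and -0.046 in that order), Srsf4 and Snrpd3 (-0.058 and -0.12 with equal medians), Hnrnpul1 (-0.019 with loess) and Hnrnph2 (-0.22 with quantile normalization, -0.027 with equal medians, -0.17 with loess, -0.085 with normexp, and -0.057 to 0.21 over the fits that leave out an array). For these the cause was not tested.

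Tumors and controls share replicate numbers in the labels. The deviations of same-numbered arrays correlated at 0.21, 0.22, 0.13 and 0.07, so the numbers were not taken to pair them, and tumor 2 correlated best with control 4 (0.27). With the number as a replicate block, 41 member probes rose (39 of the 43 among them) and 3 fell. Dim probes, understated by the 16 added, and 4 arrays per group limit all values.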
